A study of Canis lupus familiaris with 6 samples.

Results

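The genes described here encode the proteasome: the subunits of its core and regulatory particles, its activators and inhibitor, and the dedicated chaperones that help to build it. They were taken by symbol (PSMA, PSMB, PSMC, PSMD, PSME, PSMF or PSMG followed by a number), leaving out the immunoproteasome subunits PSMB8, PSMB9 and PSMB10. Of 41401 gene symbols, 45 matched. Genes averaging under 1 FPKM were set aside, which left 43 of the 45, among 12125 genes in all. FPKM counts fragments per length of transcript and per number of fragments mapped in the library. The 2 genes set aside were PSMA8, an alpha subunit known from testis, with at most 0.0187 FPKM in any library, and PSMB11, a beta subunit known from the thymic cortex, with at most 0.241 FPKM.

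The proteasome degrades proteins that carry ubiquitin chains. Its core particle is a barrel of stacked rings, with outer rings of alpha subunits that gate the entrance and inner rings of beta subunits, of which PSMB5, PSMB6 and PSMB7 carry the active sites. The regulatory particle caps the barrel: its ring of ATPases unfolds the substrate and opens the gate, and its non-ATPase subunits bind ubiquitin chains and cut them off. Other caps, the PSME activators, bind the same barrel end, and PSMF1 is an inhibitor of the core.

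RNA was measured in MDCK cells, an epithelial line from dog kidney. The lines were clone 1 (D7) and clone 2 (F22), both PRL2-/-; PRL1+/-, and wild type. Each line received PRL1 siRNA or control siRNA, and RNA was purified 18 h after the second transfection. Each line and siRNA gave 1 library. PRL1 and PRL2 are phosphatases of the PTP4A family. Each mutant line is a single clone, so the genotype and the history of a clone cannot be told apart. Separate cultures are not named in the labels, so a p-value here reaches no further than these 3 lines. The variance behind it is drawn in part from the other genes.

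PTP4A1, which encodes PRL1, had 37.8, 37.8 and 33.1 FPKM with PRL1 siRNA in clone 1, clone 2 and wild type, against 61.7, 69.9 and 63.5 FPKM with control siRNA. All 10 epithelial markers examined were above 1 FPKM in every library, and the summed FPKM of 5 leukocyte, 5 fibroblast and 5 endothelial markers was at most 1.01, 0.0290 and 1.25. PTPRC and CD3E, which define leukocytes and T cells, were listed at 0 in every library. The absolute depth of the libraries is unknown. Relative to the wild-type control library, it was 0.768, 0.868 and 0.861 with PRL1 siRNA in clone 1, clone 2 and wild type. With control siRNA it was 0.853 and 0.916 in clones 1 and 2, so each line was shallower with PRL1 siRNA. The part of depth in the differences below was not tested.

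Proteasome transcripts were abundant and varied little. The mean level ran from 11.3 FPKM for PSMG3, a core assembly chaperone, to 291 FPKM for PSMB4, a structural beta subunit. PSMB4 had 302, 301 and 290 FPKM with PRL1 siRNA in clone 1, clone 2 and wild type, against 294, 293 and 266 FPKM with control siRNA. The 7 beta subunits averaged 128 to 291 FPKM each, and 6 of the 7 alpha subunits 87.4 to 237 FPKM. The exception was PSMA1, at a mean of 22.3 FPKM. It overlaps an unnamed locus in the RefSeq annotation used for names. PSMA2, PSMA3, PSMA5 and PSMA6, at means of 98.6 to 165 FPKM, overlap unnamed loci there too. How the authors' counting treated overlaps is not known, so the part of the overlap in the level of PSMA1 was not tested. The ATPases lay between 53.6 and 77.5 FPKM, and the 11 non-ATPase subunits between 21.5 and 147 FPKM. Over the 6 libraries, the ratio of the highest to the lowest level (FPKM plus 1) had a median of 1.23 over the 43 genes, from 1.07 for the ubiquitin receptor PSMD4 to 1.49 for PSMG1. Over all genes tested the median ratio was 1.32. Those genes reached down to a mean of 1.00 FPKM, and they were not matched to the proteasome genes on level.

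A minority of proteasome genes changed with PRL1 siRNA, by small amounts and in both directions. PSMC5, PSMC1 and PSMC4 among the ATPases fell with PRL1 siRNA, as did PSMD13, PSMB1 and the assembly chaperones PSMG1, PSMG2 and PSMG3. PSMD1, PSMD8, PSME2 and PSMF1 rose. The siRNA effect was tested over the 3 lines with limma on log2(FPKM + 1), with a term for the line, and called at a Benjamini-Hochberg adjusted p under 0.05 over all 12125 genes. In all, 12 of the 43 genes were called (27.9%), beside 39.3% of all genes tested. Of these, 4 rose (9.30%, beside 17.6% of all genes) and 8 fell (18.6%, beside 21.7%). These shares did not exceed those over all genes. The median log2 fold change of the 43 genes was -0.04, with a median size of 0.07, beside -0.01 and 0.14 over all genes. In bulk RNA, fewer cells with a transcript and less of it per cell cannot be told apart.

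The calls depend on comparing the libraries of 1 line with each other. Without the line term no proteasome gene passed, 4 had an unadjusted p under 0.05 beside 2760 of all genes, and 416 of all genes were called. Without either library of clone 1, PSMC5 and PSMG1 were called, and without either of clone 2, PSMB1, PSMC5, PSMG3 and PSMD8. Without either wild-type library, PSMB1, PSMC1, PSMC4, PSMC5, PSMG1, PSMG3, PSME2 and PSMF1 were called. PSMC5 was the one proteasome gene that passed whichever library was left out.

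Within single lines, each 1 library against 1 and without a test, the median difference of the 43 genes was -0.01 in clone 1, -0.04 in clone 2 and -0.03 in wild type on the log2 scale. The largest was that of PSMG3 in clone 2, at -0.39. With PRL1 siRNA, 16 of the 43 genes were lower in all 3 lines (37.2%, beside 35.8% of all genes) and 12 were higher in all 3 lines (27.9%, beside 31.6%). The other 15 differed in sign between lines.

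**Figure D1:**
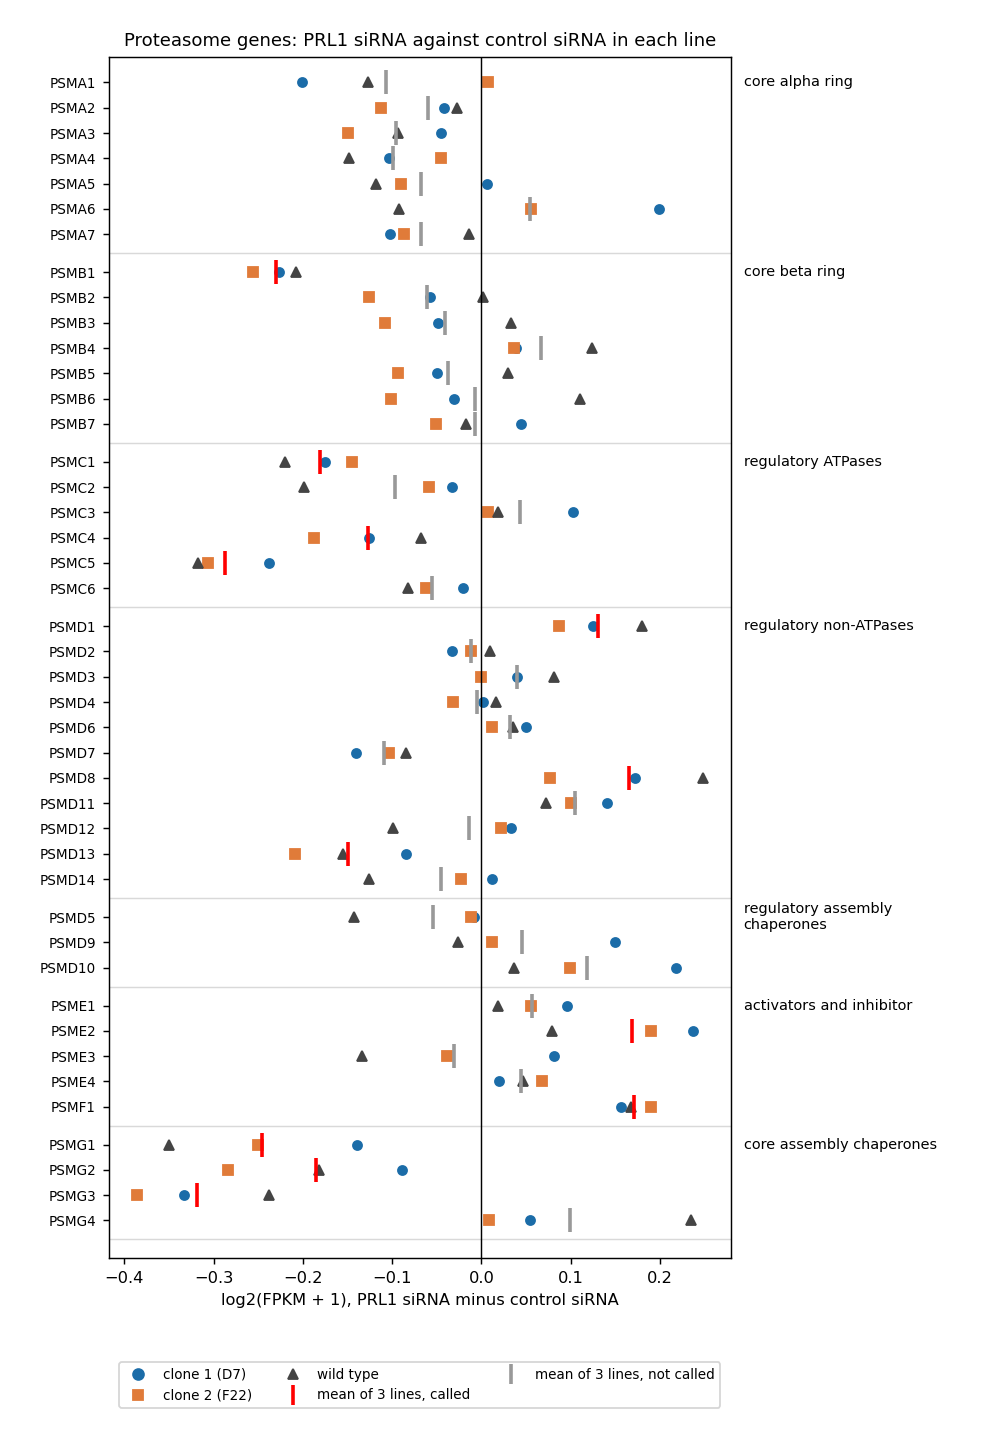
Difference in log2(FPKM + 1) between PRL1 siRNA and control siRNA for each of the 43 proteasome genes, grouped by role. Symbols are single library pairs of clone 1, clone 2 and wild type, and vertical ticks are the mean of the 3 lines, red where limma called the gene. Most points lie within 0.2 of 0, and PSMG3, PSMG1 and PSMC5 lie farthest to the left.

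In the core particle, 1 of 14 subunits was called (7.14%, beside 39.3% of all genes). That subunit was PSMB1, a beta subunit without an active site of its own. PSMB1 had 194, 176 and 185 FPKM with PRL1 siRNA in clone 1, clone 2 and wild type, against 227, 210 and 214 FPKM with control siRNA. All PRL1 siRNA libraries were below all control libraries. Its log2 fold change was -0.23 ± 0.032 (SE, 3 lines, limma adjusted p = 0.00496). Without a library of clone 1 the adjusted p was 0.0513 or 0.0516.

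None of the 7 alpha subunits was called, and 2 had an unadjusted p under 0.05, beside 50.5% of all genes. Of the 7, 4 were lower with PRL1 siRNA in all 3 lines and none was higher in all 3. The largest log2 fold change among them was that of PSMA1, at -0.11 ± 0.051 (limma adjusted p = 0.149). PSMA1 had 20.6, 22.8 and 20.8 FPKM with PRL1 siRNA in clone 1, clone 2 and wild type, against 23.8, 22.7 and 22.9 FPKM with control siRNA. Clone 1 and wild type were lower with PRL1 siRNA, and clone 2 was level. PSMA6 was the one alpha subunit with a mean difference above 0, at 0.05 (limma adjusted p = 0.497).

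The 3 catalytic subunits of the constitutive core were not called. PSMB5, which carries the chymotrypsin-like site, had 191, 221 and 177 FPKM with PRL1 siRNA in clone 1, clone 2 and wild type, against 198, 236 and 173 FPKM with control siRNA. The ranges overlapped, and the difference was negative in the clones and positive in wild type. The log2 fold change came to -0.04 ± 0.038 (limma adjusted p = 0.461).

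PSMB6, which carries the caspase-like site, had 228, 231 and 215 FPKM with PRL1 siRNA in clone 1, clone 2 and wild type, against 233, 248 and 199 FPKM with control siRNA. PSMB7, which carries the trypsin-like site, had 135, 130 and 119 FPKM with PRL1 siRNA, against 130, 135 and 120 FPKM with control siRNA. For both genes the ranges overlapped and the sign differed between lines. Their log2 fold changes were -0.0072 ± 0.048 for PSMB6 (limma adjusted p = 0.920) and -0.0077 ± 0.036 for PSMB7 (limma adjusted p = 0.882). The structural beta subunits PSMB2, PSMB3 and PSMB4 were not called either, at -0.06, -0.04 and 0.07.

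In the regulatory particle, 6 of 17 subunits were called (35.3%, beside 39.3% of all genes), 3 of them ATPases that fell. PSMC5, one of the ATPases that pull the substrate into the core, had 68.5, 66.3 and 61.7 FPKM with PRL1 siRNA in clone 1, clone 2 and wild type, against 81.0, 82.2 and 77.1 FPKM with control siRNA. The groups did not overlap, and every line was lower with PRL1 siRNA. Over the 3 lines the log2 fold change was -0.29 ± 0.036, a level 0.820 of that with control siRNA (limma adjusted p = 0.00375).

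PSMC1, an ATPase whose tail helps to open the gate of the core, had 73.1, 68.7 and 67.3 FPKM with PRL1 siRNA in clone 1, clone 2 and wild type, against 82.7, 76.1 and 78.6 FPKM with control siRNA. These groups did not overlap either. This gave a log2 fold change of -0.18 ± 0.035 (limma adjusted p = 0.0127). In the RefSeq annotation used for names, PSMC1 overlaps NRDE2. Fragments of the 2 genes may be mixed, since the strand setting of the authors' counting is not known.

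PSMC4, a further ATPase of the ring, had 52.3, 52.8 and 48.4 FPKM with PRL1 siRNA in clone 1, clone 2 and wild type, against 57.2, 60.3 and 50.8 FPKM with control siRNA. Every line was lower with PRL1 siRNA, but the wild-type control library was below both PRL1 siRNA libraries of the clones. Its log2 fold change was -0.13 ± 0.039, just past the threshold (limma adjusted p = 0.0495). The other 3 ATPases, PSMC2, PSMC3 and PSMC6, were not called, with log2 fold changes of -0.10, 0.04 and -0.06. The median over the 6 ATPases was -0.11.

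Of the 11 non-ATPase subunits, 2 rose and 1 fell, beside 17.6% and 21.7% of all genes. PSMD8, a lid subunit, had 115, 114 and 103 FPKM with PRL1 siRNA in clone 1, clone 2 and wild type, against 102, 108 and 86.8 FPKM with control siRNA. Each line was higher with PRL1 siRNA, although the ranges overlapped, and wild type was below the clones given the same siRNA. The log2 fold change came to 0.17 ± 0.044 (limma adjusted p = 0.0316).

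PSMD1, a large scaffold subunit of the base, had 67.2, 61.6 and 62.5 FPKM with PRL1 siRNA in clone 1, clone 2 and wild type, against 61.5, 58.0 and 55.0 FPKM with control siRNA. Each line was higher with PRL1 siRNA, and the groups met at the clone 2 PRL1 siRNA library and the clone 1 control library. Over the 3 lines the log2 fold change was 0.13 ± 0.037 (limma adjusted p = 0.0380). PSMD1 overlaps HTR2B and an unnamed locus in the RefSeq annotation.

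PSMD13, a lid subunit, had 82.1, 79.4 and 75.1 FPKM with PRL1 siRNA in clone 1, clone 2 and wild type, against 87.1, 91.9 and 83.7 FPKM with control siRNA. No PRL1 siRNA library reached the lowest control library. This gave a log2 fold change of -0.15 ± 0.039 (limma adjusted p = 0.0302). PSMD7, the inactive partner of the deubiquitinase PSMD14, lay just outside the threshold at -0.11 (limma adjusted p = 0.0522). PSMD7 passed after rescaling the libraries (adjusted p = 0.0449) and when only genes averaging 5 FPKM or more were tested (adjusted p = 0.0490). PSMD14, which removes ubiquitin chains during degradation, had a log2 fold change of -0.05 (limma adjusted p = 0.407). The ubiquitin receptors PSMD2 and PSMD4 were at -0.01 and -0.0046, PSMD3 and PSMD6 at 0.04 and 0.03, and the lid subunits PSMD11 and PSMD12 at 0.10 and -0.01, with no call among the 6.

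The activators and the inhibitor gave 2 calls among 5 genes (40%, beside 39.3% of all genes), both upward. PSME2 encodes a subunit of an interferon-inducible activator ring, which it forms with PSME1. It had 150, 151 and 110 FPKM with PRL1 siRNA in clone 1, clone 2 and wild type, against 127, 132 and 104 FPKM with control siRNA. Each line was higher with PRL1 siRNA, while wild type with PRL1 siRNA stayed below both clones with control siRNA. The log2 fold change was 0.17 ± 0.042 (limma adjusted p = 0.0270). PSME1 had a log2 fold change of 0.06 and was not called (limma adjusted p = 0.236).

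PSMF1 had 15.4, 16.9 and 14.8 FPKM with PRL1 siRNA in clone 1, clone 2 and wild type, against 13.7, 14.6 and 13.1 FPKM with control siRNA. The groups did not overlap. Its log2 fold change was 0.17 ± 0.038 (limma adjusted p = 0.0189). PSME3, which forms a nuclear activator, and PSME4, a large single-chain activator, were not called, at -0.03 and 0.04.

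The core assembly chaperones had the lowest median of the classes, at -0.22 over 4 genes. Of these 3 fell, beside 21.7% of all genes. PSMG1 and PSMG2 form one heterodimer and PSMG3 and PSMG4 another, and both guide the assembly of the alpha ring. PSMG3 had 10.4, 9.43 and 9.99 FPKM with PRL1 siRNA in clone 1, clone 2 and wild type, against 13.3, 12.6 and 12.0 FPKM with control siRNA. The groups did not overlap. Its log2 fold change of -0.32 ± 0.047 was the largest of the 43 genes (limma adjusted p = 0.00576), a level 0.802 of that with control siRNA.

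PSMG1 had 61.9, 50.8 and 45.6 FPKM with PRL1 siRNA in clone 1, clone 2 and wild type, against 68.2, 60.7 and 58.4 FPKM with control siRNA. Each line was lower with PRL1 siRNA, and clone 1 with PRL1 siRNA was above the control libraries of clone 2 and wild type. The log2 fold change came to -0.25 ± 0.049 (limma adjusted p = 0.0139). PSMG2 had 35.8, 29.8 and 30.8 FPKM with PRL1 siRNA, against 38.1, 36.5 and 35.0 FPKM with control siRNA. Here too clone 1 overlapped the controls, and the log2 fold change was -0.18 ± 0.048 (limma adjusted p = 0.0306). PSMG4 did not pass, at 0.10 ± 0.053 (limma adjusted p = 0.184), and was higher with PRL1 siRNA in each line.

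The chaperones of the regulatory particle, PSMD5, PSMD9 and PSMD10, gave no call, beside 39.3% of all genes. None had an unadjusted limma p under 0.05, beside 50.5% of all genes. Their median log2 fold change was 0.04. PSMD10, also known as gankyrin, had 24.9, 23.2 and 20.2 FPKM with PRL1 siRNA in clone 1, clone 2 and wild type, against 21.3, 21.6 and 19.7 FPKM with control siRNA. Each line was higher with PRL1 siRNA, by a log2 fold change of 0.12 ± 0.048 (limma adjusted p = 0.102).

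**Figure D2:**
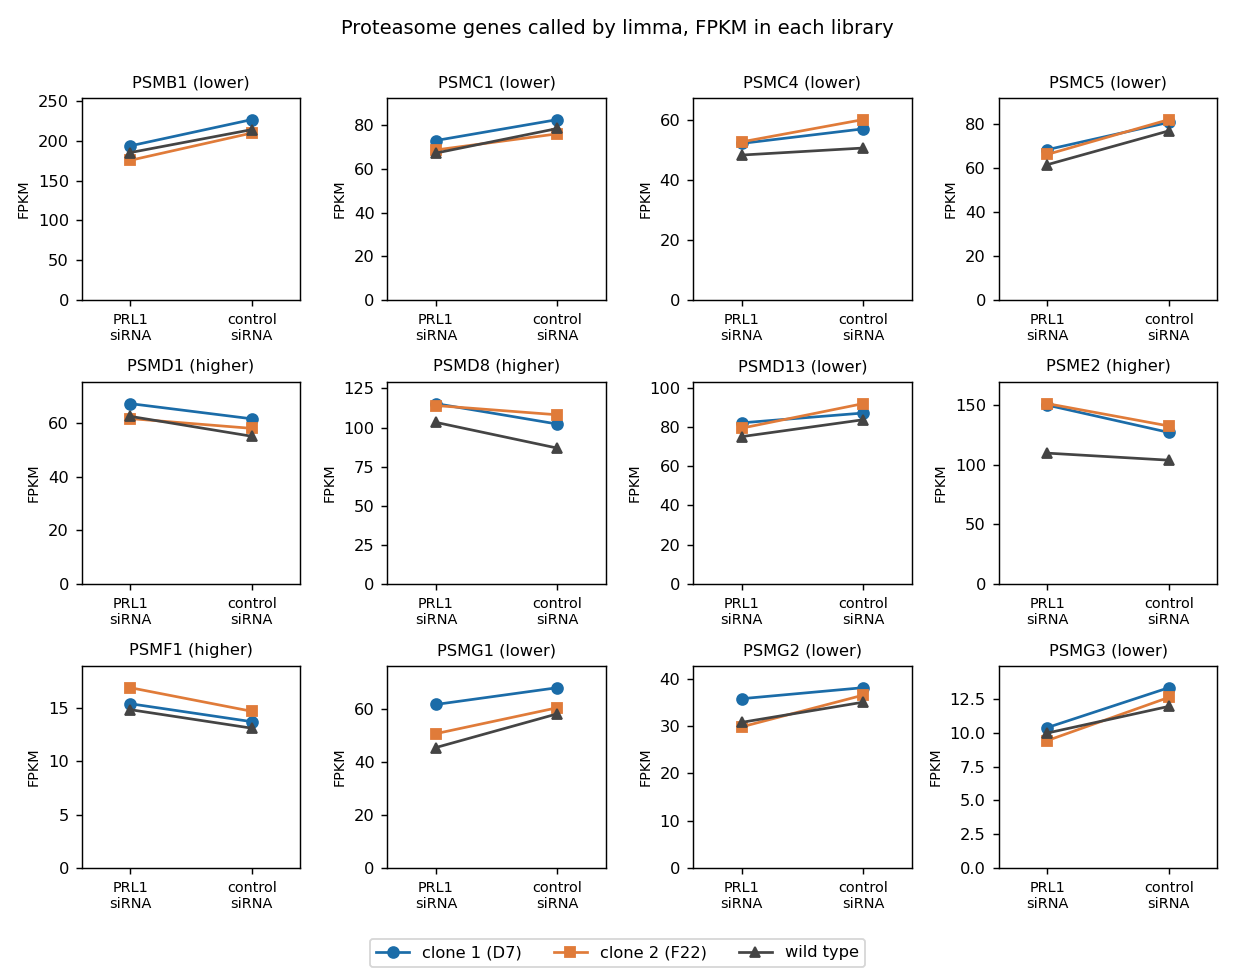
FPKM of the 12 called proteasome genes in every library, with PRL1 siRNA on the left and control siRNA on the right of each panel and a line joining the 2 libraries of clone 1, clone 2 or wild type. All axes start at 0. The 8 genes that fell have lower points on the left in all 3 lines and the 4 that rose higher ones.

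Set beside each other, the core and regulatory particles kept close to one ratio. The 14 core subunits averaged 168, 164 and 153 FPKM with PRL1 siRNA in clone 1, clone 2 and wild type, against 173, 174 and 155 FPKM with control siRNA. The 17 regulatory subunits averaged 77.7, 74.3 and 69.9 FPKM with PRL1 siRNA, against 78.2, 76.9 and 71.5 FPKM with control siRNA. The ratio of the 2 means was 2.16, 2.21 and 2.19 with PRL1 siRNA, against 2.21, 2.27 and 2.17 with control siRNA. It was lower with PRL1 siRNA in both clones and higher in wild type. The regulatory mean leaves out the subunits ADRM1 and SEM1, which stand under other symbols and averaged 77.3 and 445 FPKM. The ratio with them included was not computed. The median log2 fold change was -0.06 over the core subunits and -0.01 over the regulatory subunits. Without a library of clone 2 both medians were -0.03, and without a library of clone 1 the regulatory median was -0.04, so no order between the particles is read from them.

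The immunoproteasome subunits, which replace the constitutive catalytic subunits in cells exposed to interferons, all rose (PSMB8, PSMB9 and PSMB10), beside 17.6% of all genes. PSMB9, which takes the place of PSMB6, had 80.2, 76.8 and 35.2 FPKM with PRL1 siRNA in clone 1, clone 2 and wild type, against 46.8, 49.8 and 28.1 FPKM with control siRNA. Each line was higher with PRL1 siRNA, and wild type stayed below the clones throughout. The log2 fold change of PSMB9 was 0.57 ± 0.086 (limma adjusted p = 0.00632), and it passed whichever library was left out.

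PSMB8, which takes the place of PSMB5, and PSMB10, which takes that of PSMB7, had log2 fold changes of 0.43 ± 0.076 (limma adjusted p = 0.00969) and 0.24 ± 0.038 (limma adjusted p = 0.00775). Without a library of clone 1, PSMB8 had an adjusted p of 0.0588 or 0.0595 and PSMB10 one of 0.0632 or 0.0636. Without the line term none of the 3 passed, with limma adjusted p = 0.412 for PSMB9, 0.602 for PSMB8 and 0.496 for PSMB10. None passed with no filter on low genes either, with limma adjusted p = 0.102 for PSMB9, 0.112 for PSMB8 and 0.0590 for PSMB10. Of the summed FPKM of the 6 catalytic subunits, the immunoproteasome forms made up 20.7%, 20.7% and 13.9% with PRL1 siRNA in clone 1, clone 2 and wild type, against 14.7%, 15.4% and 12.2% with control siRNA. The share was higher with PRL1 siRNA in each line, and higher in the clones than in wild type under either siRNA.

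**Figure D3:**
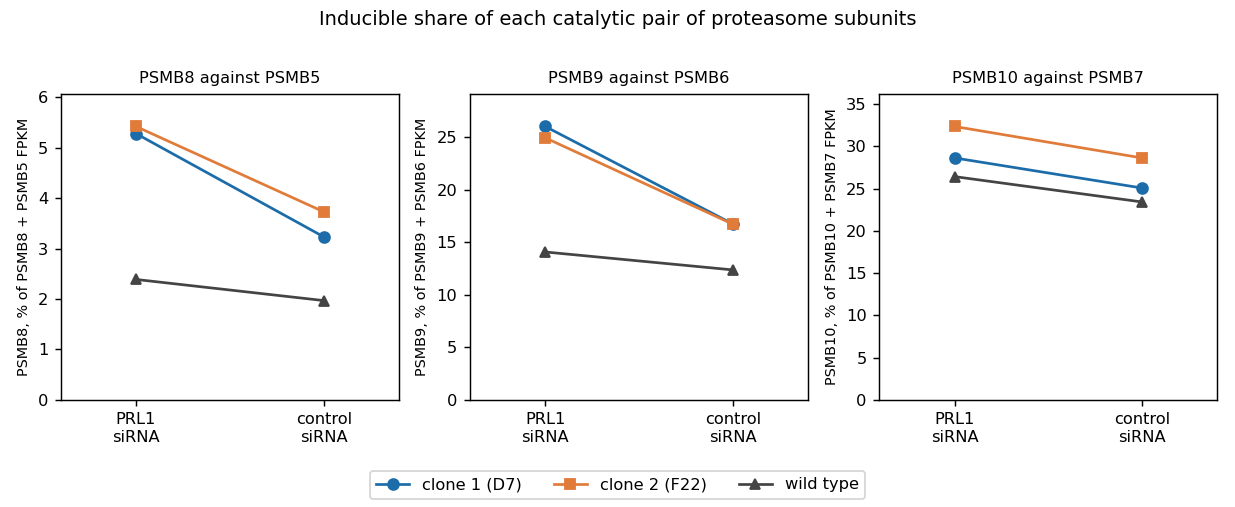
FPKM of PSMB8, PSMB9 and PSMB10 as a percentage of the FPKM of each together with the constitutive subunit it replaces, with PRL1 siRNA on the left and control siRNA on the right, joined within clone 1, clone 2 and wild type. All 3 shares are higher with PRL1 siRNA in every line, and that of PSMB9 reached 26.0% and 25.0% in the clones and 14.1% in wild type.

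Subunits and enzymes of the regulatory particle under other symbols gave 2 falls among 4 genes, beside 21.7% of all genes that fell. Their median log2 fold change was -0.17. USP14, a deubiquitinase that docks on the base, had 51.8, 50.2 and 46.6 FPKM with PRL1 siRNA in clone 1, clone 2 and wild type, against 68.4, 71.1 and 68.0 FPKM with control siRNA. The groups lay far apart, with no overlap. Over the 3 lines the log2 fold change was -0.47 ± 0.041 (limma adjusted p = 0.00174), a size above that of any of the 43 proteasome genes. It passed without the line term too, at an adjusted p of 0.0220.

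UCHL5, the other deubiquitinase that docks on the regulatory particle, had 72.5, 61.9 and 54.2 FPKM with PRL1 siRNA in clone 1, clone 2 and wild type, against 83.5, 76.9 and 72.5 FPKM with control siRNA. Each line was lower with PRL1 siRNA, and clone 1 with PRL1 siRNA was level with the wild-type control. This gave a log2 fold change of -0.31 ± 0.049 (limma adjusted p = 0.00724). ADRM1, the ubiquitin receptor that anchors UCHL5, and SEM1, a small lid subunit, were not called, at -0.04 and -0.03.

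NFE2L1 (also called NRF1) is a transcription factor known to induce proteasome genes. A list of 12 genes around it gave 2 rises and 4 falls, beside 17.6% of all genes that rose and 21.7% that fell. The median of the list was -0.17. It holds genes of the route by which NFE2L1 reaches the nucleus. It also holds BTRC, FBXW7, MAFF, MAFG, MAFK and NFE2L2, which are not steps of that route. NFE2L1 had 53.4, 54.1 and 54.1 FPKM with PRL1 siRNA in clone 1, clone 2 and wild type, against 46.7, 46.1 and 47.7 FPKM with control siRNA. The groups did not overlap, and NFE2L1 rose by a log2 fold change of 0.20 ± 0.034 (limma adjusted p = 0.00936). BTRC, a ubiquitin ligase subunit that targets nuclear NFE2L1, also rose (0.24). NGLY1, which removes sugar chains from NFE2L1, fell (-0.33), as did SEL1L (-0.30) and SYVN1 (-0.32), which move it out of the endoplasmic reticulum. NFE2L2, a related factor of the oxidative stress response, fell too (-0.28). Without a library of clone 1, NFE2L1, BTRC, NGLY1, SEL1L and SYVN1 did not pass, nor did NFE2L1 and BTRC without a library of clone 2.

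Among 5 ubiquitin genes and E1 enzymes, 1 rose and 2 fell, beside 17.6% and 21.7% of all genes, with a median of -0.01. UBB, which encodes ubiquitin in repeated copies, rose (0.27), while RPS27A, which encodes ubiquitin fused to a ribosomal protein, and the E1 enzyme UBA6 fell (-0.22 and -0.35). RPS27A did not pass without a library of clone 1. Of 15 shuttle factors and proteasome-bound proteins, 5 rose and 3 fell, beside the same 17.6% and 21.7% of all genes. Their median was -0.10, and -0.06 without a library of wild type. The rises were HSPB1, a small heat shock protein (0.98), UBQLN2, a ubiquitin shuttle (0.45), the co-chaperone BAG3, and ZFAND5 and ZFAND2A, which bind the proteasome. The falls were ECPAS, a scaffold that binds the proteasome, TXNL1 and PITHD1. Without a library of either clone, HSPB1 and UBQLN2 were the 2 of these 8 genes that still passed. ZFAND2A, TXNL1 and PITHD1 did not pass without a library of any line.

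Of 12 genes for the segregase p97 (VCP) and its cofactors, none was called and 4 had an unadjusted p under 0.05, beside 50.5% of all genes, with a median of -0.07. VCP also stands on the NFE2L1 list, and DDI2 on that list and on the list of shuttle factors. Assembly factors under other symbols gave no call among 3 genes, 2 of which had an unadjusted p under 0.05 (again beside 50.5% of all genes), with a median of -0.14.

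Falls were also counted in complexes with other functions. The regulatory lid shares its architecture with the COP9 signalosome and the translation factor eIF3. In the signalosome 3 of 10 genes fell and none rose, with a median of -0.08, and COPS5, its catalytic subunit, had the largest change (-0.26). In eIF3, 7 of 12 genes fell and none rose, with a median of -0.14, led by EIF3I (-0.53) and EIF3A (-0.31). In TRiC/CCT, a cytosolic chaperonin, 7 of 8 genes fell and none rose, with a median of -0.15, led by CCT8 (-0.37) and CCT4 (-0.24). These are counts beside the 21.7% of all genes that fell, and no test was made between the lists. Without a library of either clone, 1 signalosome gene (COPS5), 3 eIF3 genes and 2 TRiC/CCT genes fell, and without the line term none of the 3 complexes had a call. Of the genes named from all these lists, USP14 and UBA6 passed without the line term.

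**Figure D4:**
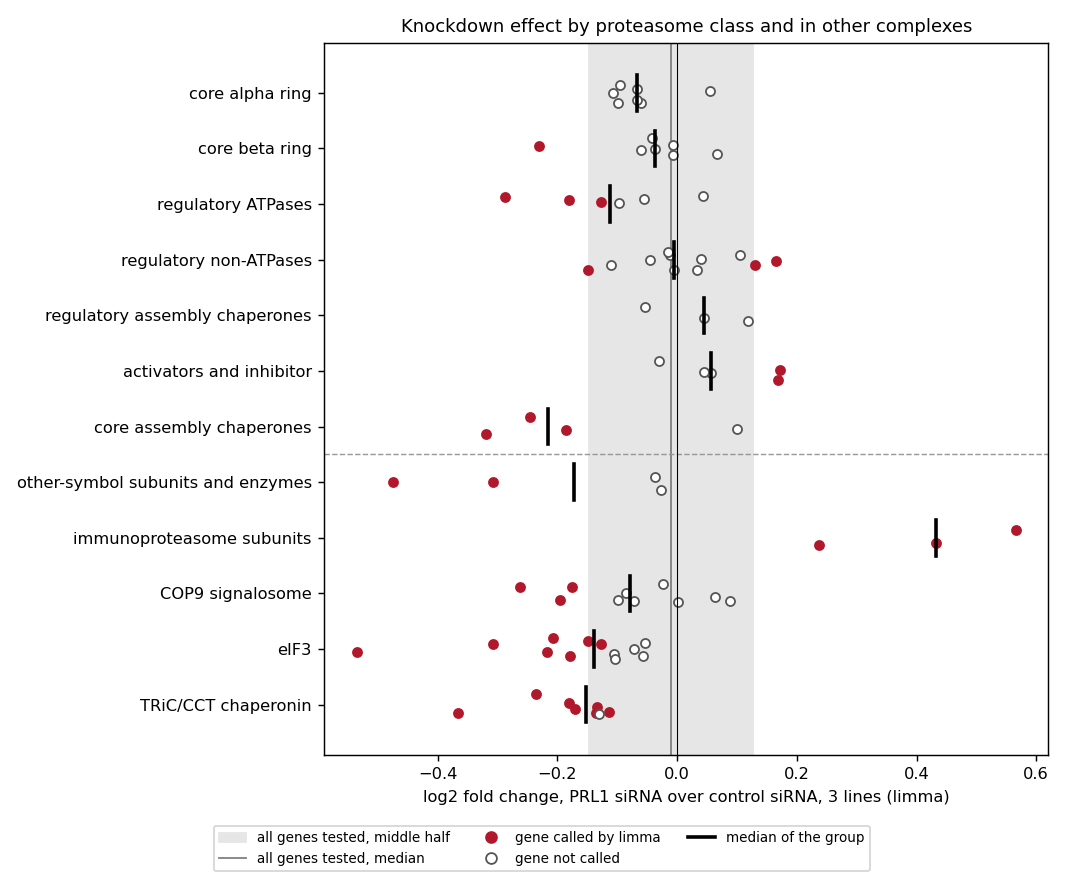
Log2 fold change of PRL1 siRNA over control siRNA across the 3 lines for each gene, by proteasome class (above the dashed line) and in other gene lists (below it). Filled red points are genes called by limma, open points are not called, bars are group medians, and the grey band spans the central 50% of all genes tested. The medians of the core assembly chaperones (-0.22) and of the regulatory subunits and enzymes under other symbols (-0.17) lie to the left of the band. That of TRiC/CCT (-0.15) lies narrowly to the left, and that of the immunoproteasome subunits (0.43) to the right. PSMG4, ADRM1, SEM1 and some TRiC/CCT genes lie within the band.

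Whether the knockdown effect differed between the clones and wild type was tested as an interaction. No proteasome gene was called by limma, beside 0.00825% of all genes (1 gene). At an unadjusted p under 0.05 there were 2 of 43 (4.65%), beside 10.1% of all genes. They were PSMB6, with an effect of -0.18 ± 0.062 on the log2 scale in the clones relative to wild type, and PSMG4, at -0.20 ± 0.060. The smallest adjusted p among the 43 genes was 0.473. Estimates ran from the value of PSMG4 to 0.22 ± 0.081 for PSMA6, the alpha subunit with 138, 121 and 102 FPKM under PRL1 siRNA in clone 1, clone 2 and wild type, against 120, 116 and 109 FPKM under control siRNA. This test had 1 residual degree of freedom and took the single wild-type pair to vary as the clone pairs do.

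Proteasome transcripts were higher in both clones than in wild type for most genes, by amounts that did not pass the test. Under control siRNA, 35 of 43 genes were above wild type in both clones (81.4%, beside 43.6% of all genes), and under PRL1 siRNA 32 of 43 (74.4%, beside 42.9%). All 4 clone libraries were above both wild-type libraries for 23 of 43 genes (53.5%, beside 17.5% of all genes), and for none were all 4 below. By class these were 5 of 7 alpha subunits, 5 of 7 beta subunits, 2 of 6 ATPases, 5 of 11 non-ATPases, 2 of 3 regulatory chaperones, 3 of 5 activators and inhibitor, and 1 of 4 core assembly chaperones. Without 1 library at a time the count was 23 to 29. Leaving a library out only loosens the rule, so the count could not fall in this check.

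Tested under control siRNA, the median log2 difference between clones and wild type was 0.12 over the 43 genes, beside 0.03 over all genes, and 40 of 43 were above 0 (93.0%, beside 57.2%). None was called by limma, beside 0% of all genes, and the smallest adjusted p among the 43 was 0.256. At an unadjusted p under 0.05 there were 10 of 43 (23.3%), beside 13.5% of all genes. They were PSMA5, PSMA7, PSMB3, PSMB6, PSMC3, PSMC4, PSMD2, PSMD8, PSME2 and PSMG4. With 1 clone library left out, 1 to 4 of the 43 genes had an unadjusted p under 0.05, the fewest without the control library of clone 2, where it was 1 of 43 beside 719 of 12125 genes. The largest difference was that of PSMB3, a structural beta subunit, which had 151 and 147 FPKM in clones 1 and 2 against 127 FPKM in wild type under PRL1 siRNA. Under control siRNA PSMB3 had 156 and 159 FPKM in the clones, against 124 FPKM in wild type. Its log2 difference was 0.34 ± 0.064.

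PSME2, whose values are given above, followed at 0.32 ± 0.066, with both clones above wild type under either siRNA. PSMB5 had a like difference of 0.32 but a wide error of 0.16, since clone 2 lay above clone 1. The 3 genes below 0 were PSMD14, PSMC6 and PSMA3, at -0.06, -0.03 and -0.0076. Of the lists, 8 of 8 TRiC/CCT genes, 10 of 10 signalosome genes, 10 of 12 eIF3 genes, 4 of 4 subunits and enzymes under other symbols and 3 of 3 immunoproteasome genes were likewise above 0. So were 11 of 15 shuttle factors, 4 of 5 ubiquitin and E1 genes, 8 of 12 p97 genes, 2 of 3 assembly factors and 7 of 12 genes of the NFE2L1 list, beside 57.2% of all genes. The summed epithelial markers moved with the lines too, at 1632 and 1850 FPKM in the clones against 1254 FPKM in wild type under PRL1 siRNA, and 1773 and 1951 FPKM against 1278 FPKM under control siRNA. The largest terms of the sum were KRT8, KRT18 and EPCAM, and not every marker moved this way. TJP1 was lower in both clones than in wild type under either siRNA, and PAX8 under PRL1 siRNA. OCLN and CLDN3 were lower in clone 2 than in wild type under PRL1 siRNA. The part of these markers in the difference was not tested. The genotype lies between lines, so the spread comes from the 2 clones, and the single library of wild type was taken to have the same spread. The 2 residual degrees of freedom are the same 2 clones under each siRNA. They are not independent replicates of the genotype, so the errors and p-values of this comparison may be too small.

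**Figure D5:**
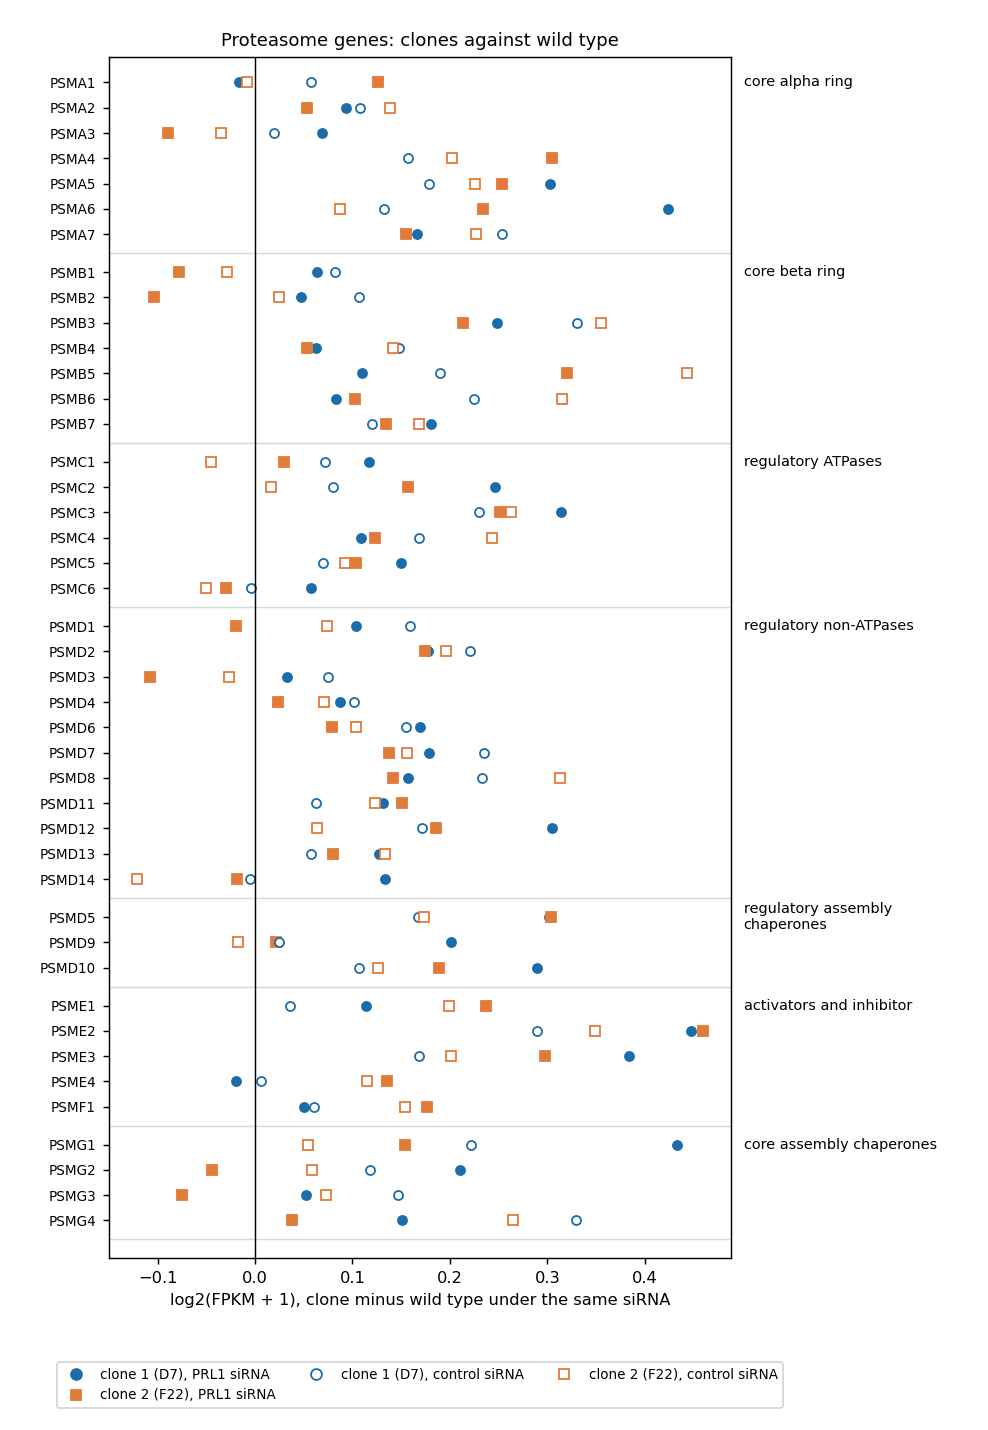
Difference in log2(FPKM + 1) between each clone and wild type under the same siRNA for the 43 proteasome genes, with filled symbols for PRL1 siRNA and open symbols for control siRNA. Most points lie to the right of 0: both clones were above wild type for 32 genes under PRL1 siRNA and 35 under control siRNA.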

How the data were processed

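The values are FPKM, 1 per gene symbol and library, as deposited by the authors for 6 libraries. The submitters' processing notes name HISAT2 2.1.0, Cufflinks 2.2.1 and Cuffdiff. RNA was prepared with a stranded mRNA kit, per the labels' protocols. The genome build, the annotation, the treatment of fragments with several matches and the strand setting are, for all 6 libraries, not given in the sources used here. FPKM holds no counts, so no count model was run. All 43 proteasome symbols matched RefSeq names of assembly UU_Cfam_GSD_1.0, and 15 of them overlap another annotated gene there. POMP and EIF3C were not analysed here, and 1 gene of the ubiquitin list is not reported here. No sequence is shown.

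From the FPKM values, log2(FPKM + 1) was fitted with limma 3.58.1 in R 4.3.3, with moderated variances and an intensity trend, for genes averaging 1 FPKM or more, with Benjamini-Hochberg adjustment over all 12125 genes and a threshold of 0.05. The pseudocount shrinks fold changes of low genes. The knockdown effect used all 6 libraries with line and siRNA as terms (2 residual degrees of freedom, prior 3.58), the interaction a further term for siRNA in the clones (1 residual degree of freedom, prior 3.23), and clones against wild type 4 groups (2 residual degrees of freedom, prior 1.95). Errors are standard errors of these fits. The libraries of a line are paired by the line itself, as the labels name it, and their deviations from the siRNA means correlated across genes at r = 0.511 in clone 1, 0.698 in clone 2 and 0.684 in wild type. Relative depth was read from ratios of values below 0.1 FPKM. None of the 15 pairs of libraries held identical values. Only the fit of the knockdown effect was run on simulated data, and the outcome is not given here.

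Genes given in full were the largest change in each class, PSMB5 to PSMB7, the highest and lowest gene, genes called against the majority, and from each other list up to 6 genes, called ones first. The remaining called genes were added after their values were seen. The members, lists and tests were chosen with earlier results of these data known. Alternatives were the pseudocount, the filter, rescaling, the trend, the line term, the clones alone and leaving out each library.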

Additional observations from a re-analysis of the deposited data

How the results depend on the processing

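For the knockdown effect, 4 proteasome genes rose and 8 fell in the fit reported, among 4762 genes called. With a pseudocount of 0.1 these counts were 4 and 8, and with rescaled libraries or a minimum of 5 FPKM they were 4 and 9. With no filter on low genes they were 1 and 2, among 1179 genes called, and with no intensity trend 1 and 6. Leaving out 1 library at a time, 0 to 2 rose and 2 to 6 fell, among 1721 to 4095 genes called, with a median log2 fold change of the members from -0.038 to -0.023. With no replicate block, that is without the line term that pairs the libraries, 0 rose and 0 fell, among 416 genes called. The 2 clones alone with the replicate block gave 2 and 6, with a median of -0.023. The 2 clones alone without pairing gave 0 and 0 with no gene called (0), again with a median of -0.023. Here 2575 genes, 4 of them proteasome genes, had an unadjusted p under 0.05. The cause of these differences was not tested beyond the fewer libraries or added genes that each setting brings.

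The sign of uncalled genes near 0 turned. Leaving out a library, PSMB6 ranged from -0.066 (wild type) to 0.040 (clone 2), with 0.0048 for clone 1, and PSMB7 from -0.034 (clone 1) to 0.014 (clone 2), and PSMA6 was -0.018 without a library of clone 1. The median of the other-symbol assembly factors was -0.0094 among genes of at least 5 FPKM, that of p97 genes ran from -0.0586 to -0.047 with a library left out, and that of ubiquitin genes from -0.075 (wild type left out) to 0.026 (clone 2 left out).

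For the interaction, 1 gene was called, against 2 with a pseudocount of 0.1, 0 with no filter, 3 at 5 FPKM, 7 with no trend and 0 with no replicate block. Leaving out a library left no residual degrees of freedom there. For clones against wild type, 0 genes were called, against 165 with no filter and 4 with no trend, and the members' median was 0.12 to 0.13 with a library left out, the highest without the control library of clone 2. That comparison could not be estimated without the wild-type control library. The count of 23 genes above wild type in all clone libraries, tried under alternatives chosen after seeing the data, was 23 after rescaling. The rescaling factors were 1.001 to 1.009, so rescaling altered the values little. Depth is known only as a ratio between libraries, so counting error could not be set beside these small differences.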
